A study of Homo sapiens with 24 samples.

Results

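The 43 genes described here encode proteins that take a cell into and through mitosis: cyclins and kinases of mitotic entry, the chromosomal passenger complex, the spindle checkpoint, kinetochore subunits, mitotic kinesins, spindle assembly factors, activators and substrates of the anaphase-promoting complex, cytokinesis regulators and proteins of mitotic chromosomes. They were taken from a list of names rather than by a threshold on their values, although with earlier results of these data known, and each gene was read from its brightest probe set (highest mean level over all arrays). All 43 passed a filter on low values (a log2 level of at least 4 in at least 3 arrays), among 10963 genes tested of 19775 named on the array. RNA of 2 human leukemia cell lines was hybridised to 24 arrays, 3 in each of 8 groups. MV4-11, a biphenotypic B myelomonocytic line with an MLL-AF4 rearrangement, was kept in IMDM with 10% FBS and exposed to 3 uM EPZ004777 or to vehicle, 0.1% DMSO, with arrays for days 2, 4 and 6. MOLM-13, an acute myeloid leukemia line with an MLL-AF9 rearrangement, was kept in RPMI with 10% FBS and exposed to the same agent, dose and vehicle, with arrays for day 6 only. EPZ004777 inhibits DOT1L, the enzyme that methylates a lysine in the core of histone H3, and both lines carry fusions of MLL, whose partner proteins bring DOT1L to chromatin. The labels call the replicates biological but do not say whether they were separate cultures, or whether the days are samples of the same cultures, so p-values measure the spread between these samples. Each group is a culture of 1 line with 1 fusion, so the line, the fusion and the medium cannot be told apart.

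Transcripts of these genes are low in G1 and accumulate towards mitosis in a dividing cell. As background, many of their promoters hold a CHR element (cell cycle genes homology region, with the core TTTGAA or TTTAAA) and CCAAT boxes. The CHR is bound by MuvB complexes, which repress in quiescent cells as part of DREAM and activate before mitosis together with B-MYB and FOXM1, and the CCAAT box is bound by NF-Y. In bulk RNA, fewer cells near mitosis and less of a transcript in each such cell cannot be told apart, and equalising the arrays removes any change in the RNA content of the culture as a whole.

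The arrays were comparable in scale: the medians of the tested genes on single arrays differed by at most 0.17 on the log2 scale. All 7 measured myeloid markers (SPI1, CEBPA, LYZ, MPO, CSF3R, CSF1R and MEIS1) were at or above log2 4 on all arrays, while 4 of 5 T cell markers were below it on all arrays and CD3D reached it on some. Of other cell types, the B cell gene CD79B, the erythroid gene EPOR and the epithelial and stromal genes KRT18 and COL1A1 were also at or above log2 4 on all arrays and PAX5 on some, while 2 of 4 B cell, 2 of 3 erythroid and 4 of 6 epithelial and stromal genes measured were below it on all arrays. A measure of RNA quality did move with treatment. The log2 difference between 3' and 5' control probe sets, averaged over ACTB and GAPDH, lay between 0.53 and 0.82 in the day 2 and day 4 groups and between 0.57 and 0.58 in day 6 vehicle MV4-11 cells. It was 0.83, 0.86 and 1.91 in the 3 day 6 treated MV4-11 arrays, with replicate 3 the highest, 0.95 to 1.15 in MOLM-13 vehicle cells and 2.10 to 2.84 in MOLM-13 treated cells. The day 6 counts of each line, and those of the day 4 to day 6 and line differences, are given below with this measure as a covariate as well. Other counts are not, and of the single values that it moved only some are.

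The promoters of these genes are described first, and their part in the changes below was not tested. RefSeq's promoter table for GRCh38.p14, which holds 250 bases before and 50 bases after each gene start, matched 36 of the 43 genes with 46 promoters. TTTGAA was found on either strand in 65.2% of those promoters and in 15.2% of all 35116 promoters of the table. TTTAAA was found in 32.6% and 12.2%, and at least 1 of both in 80.4% and 23.99%, which covers 33 of the 36 genes. CCAAT was found in 76.1% of the promoters and 34.6% of all, and a CHR core together with CCAAT in 63.0% and 9.27%. Within the 50 bases before the start, a window chosen after the positions were seen, 43.5% held a CHR core, against 4.39% of all promoters. The 4 E2F site forms searched (TTTGGCGC, TTTCCCGC, TTTCGCGC and TTTGCCGC) were found in 8.70% and 3.31%. These matches describe letters in a window and were not tested as binding sites. The 6 sequences below, 250 bases before the gene start and written 5' to 3' on the gene's strand, belong to the genes with the largest day 6 falls in MV4-11 cells among those with a CHR core before the start. Capitals mark a CHR core or CCAAT on either strand, and in MKI67 a TTTGAA runs into an ATTGG, the reverse complement of CCAAT.
INCENP: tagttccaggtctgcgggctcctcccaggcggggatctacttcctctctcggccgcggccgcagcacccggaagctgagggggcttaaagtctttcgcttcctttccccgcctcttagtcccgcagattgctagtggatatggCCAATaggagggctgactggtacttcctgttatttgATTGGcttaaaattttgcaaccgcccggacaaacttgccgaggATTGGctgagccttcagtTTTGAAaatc
KIF18A: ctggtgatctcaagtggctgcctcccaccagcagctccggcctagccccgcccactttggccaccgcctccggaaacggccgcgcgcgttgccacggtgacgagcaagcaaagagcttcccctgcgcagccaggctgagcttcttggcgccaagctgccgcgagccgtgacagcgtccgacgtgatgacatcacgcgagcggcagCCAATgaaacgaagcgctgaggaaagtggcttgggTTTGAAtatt
PLK1: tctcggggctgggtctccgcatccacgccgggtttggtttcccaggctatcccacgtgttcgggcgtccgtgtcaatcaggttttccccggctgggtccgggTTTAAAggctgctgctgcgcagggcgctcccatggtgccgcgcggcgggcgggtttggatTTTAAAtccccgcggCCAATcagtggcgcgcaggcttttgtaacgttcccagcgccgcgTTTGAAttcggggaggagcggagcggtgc
CCNB1: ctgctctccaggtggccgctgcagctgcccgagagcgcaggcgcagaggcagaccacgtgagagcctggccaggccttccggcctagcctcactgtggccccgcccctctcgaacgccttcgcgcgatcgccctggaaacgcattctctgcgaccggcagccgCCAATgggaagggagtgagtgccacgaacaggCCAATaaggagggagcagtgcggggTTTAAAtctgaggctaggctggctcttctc
MKI67: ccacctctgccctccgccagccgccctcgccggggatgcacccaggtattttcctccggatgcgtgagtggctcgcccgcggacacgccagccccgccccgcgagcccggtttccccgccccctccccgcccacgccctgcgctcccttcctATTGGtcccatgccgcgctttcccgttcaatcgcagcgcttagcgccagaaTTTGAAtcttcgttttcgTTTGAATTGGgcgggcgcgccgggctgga
SPC25: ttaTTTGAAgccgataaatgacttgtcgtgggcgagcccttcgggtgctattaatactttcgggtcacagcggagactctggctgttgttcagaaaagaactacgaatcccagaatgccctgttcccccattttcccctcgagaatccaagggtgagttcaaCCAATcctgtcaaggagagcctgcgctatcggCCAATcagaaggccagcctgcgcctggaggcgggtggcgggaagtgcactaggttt
They lie at chr11:62123761-62124010 (plus strand), chr11:28108157-28108406 (minus strand), chr16:23678639-23678888 (plus strand), chr5:69166900-69167149 (plus strand), chr10:128126424-128126673 (minus strand) and chr2:168890431-168890680 (minus strand), each directly before its gene. The first base of the CHR core lies 10 bases before the start in INCENP and in KIF18A, 30 in CCNB1, 47 and 29 in MKI67, and 148, 88 and 29 in PLK1. In SPC25 it lies 247 bases before the start, with CCAAT boxes at 88 and 56.

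In MV4-11 cells the 43 genes changed little by day 2, fell by day 4 and fell further by day 6. The median log2 difference between treated and vehicle arrays was -0.10 on day 2, -0.43 on day 4 and -1.001 on day 6, while the median over all tested genes was 0.02, 0.01 and 0.04. On day 2, 2 of 43 genes were called lower by limma (adjusted p under 0.05), where 3.69% of all genes were, and 0 were called higher (0 at an unadjusted p under 0.05, against 7 lower). Leaving out any single day 2 array left 0 or 1 of the 2. On day 4, 36 of 43 were lower, where 21.0% of all genes were, and 0 were higher (0 at an unadjusted p under 0.05). Over all genes, 968 were called higher and 404 lower on day 2, and 2763 higher and 2304 lower on day 4. On day 6, 42 of 43 were lower, where 28.4% of all genes were, and 22 of them were lower by at least 2-fold, where 3.85% of all genes were. BUB3 was the 1 gene called higher on day 6, when 33.6% of all genes were.

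The same order held on single arrays. The median of the 43 genes against the vehicle mean was -0.11, -0.09 and -0.09 on the 3 treated arrays of day 2, -0.39, -0.49 and -0.41 on those of day 4, and -0.93, -0.98 and -1.05 on those of day 6. All 3 treated arrays lay below all 3 vehicle arrays for 16 genes on day 2, 38 on day 4 and 42 on day 6, where 15.4%, 27.4% and 29.6% of all genes were so placed. The lowest of the day 6 values belongs to replicate 3, the array with the 3' to 5' difference of 1.91. Without it, 42 genes were still lower and the median was -0.96, and with the 3' to 5' difference as a covariate 42 were lower with a median of -0.997. BUB3 was not called in either case. On day 6 the 3' to 5' difference did not overlap between treated (0.83 to 1.91) and vehicle arrays (0.57 to 0.58). The covariate therefore cannot fully separate RNA quality from treatment. It moved single day 6 differences both ways. TPX2 went from -1.29 to -0.95, KIF18A from -1.71 to -1.44 and CENPF from -0.82 to -0.60, but FOXM1 from -0.82 to -1.08.

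**Figure D1:**
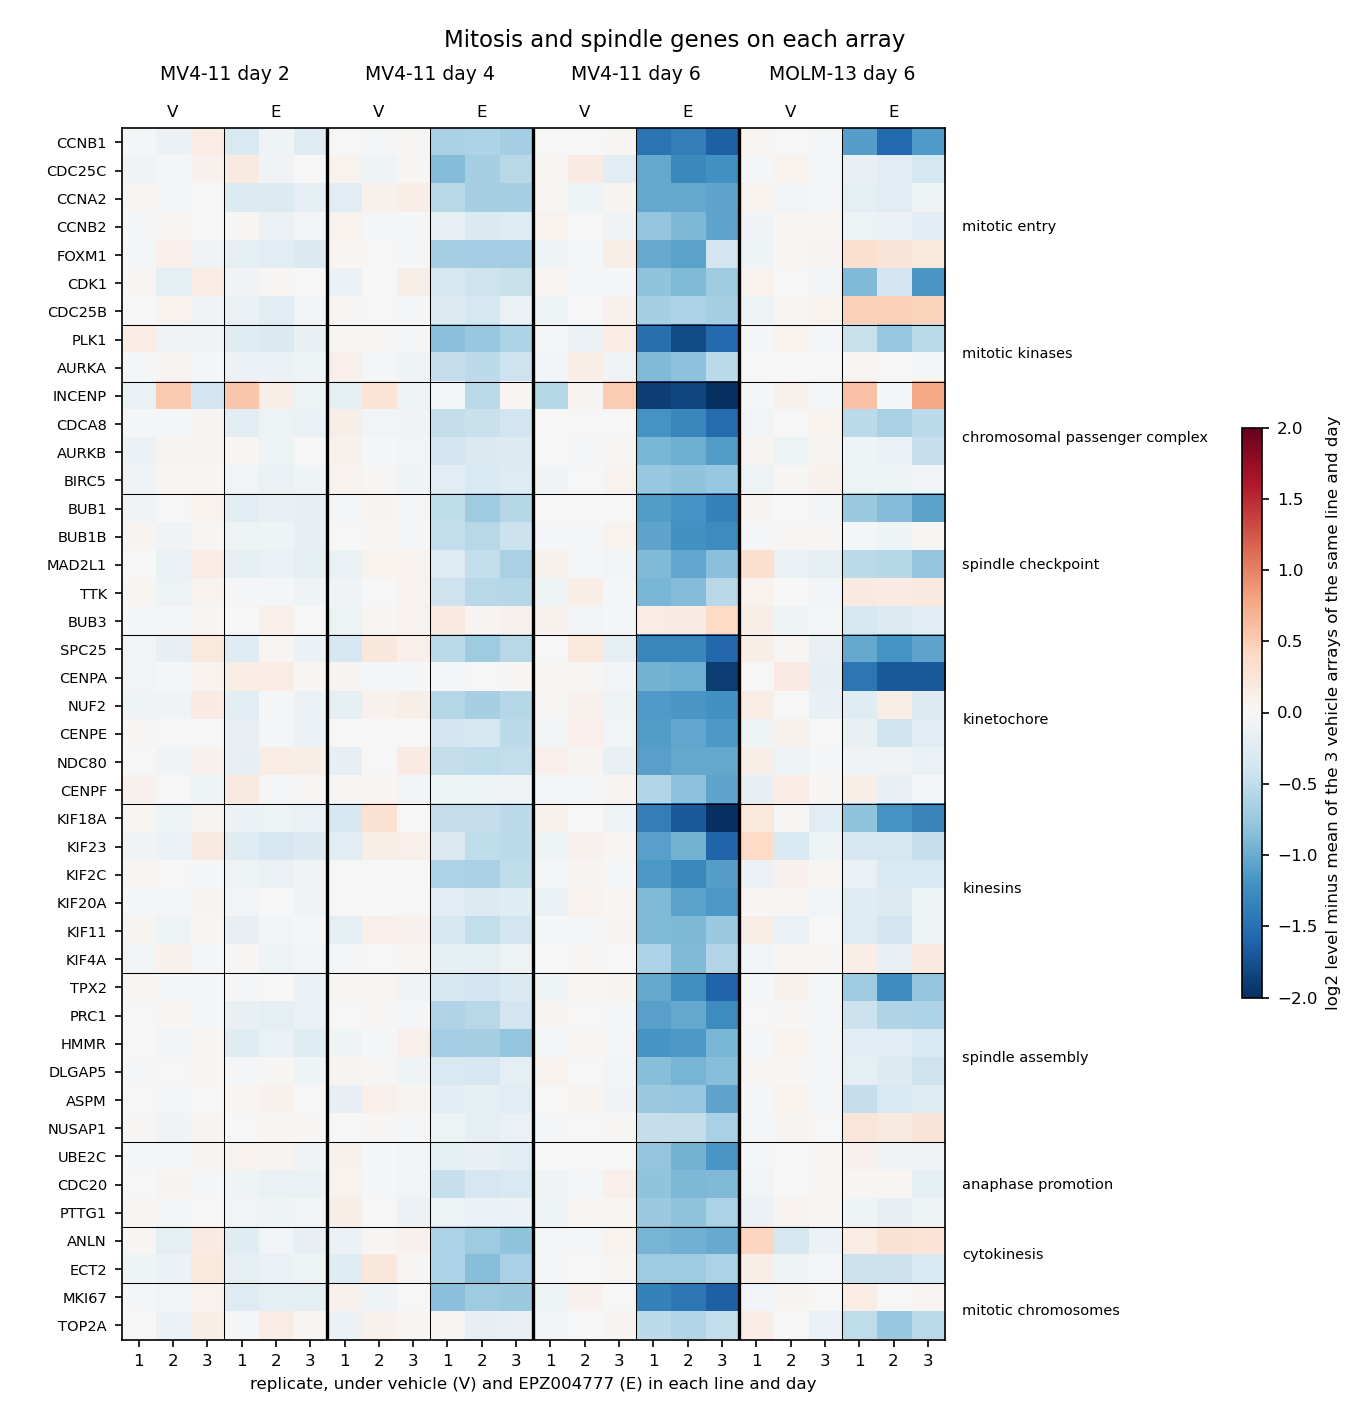
Each row is a gene, grouped by role and ordered within a role by its day 6 change in MV4-11 cells, and each column is an array; colour gives the log2 level minus the mean of the 3 vehicle arrays of the same line and day (V vehicle, E EPZ004777, colours limited to -2 to 2). The MV4-11 treated columns grow bluer from day 2 to day 6 in all rows but BUB3, while the MOLM-13 treated columns hold both blue and red rows.

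Genes of mitotic entry all fell in MV4-11 cells: 7 of 7 were called lower on day 4 (median -0.63) and 7 of 7 on day 6 (median -0.91). CCNB1, cyclin B1, the partner of CDK1 at the entry into mitosis, read 12.05, 12.06 and 12.09 on the day 6 vehicle arrays and 10.59, 10.68 and 10.44 on the treated arrays. That is a fall of 2.82-fold (log2 difference -1.50, SE 0.096, adjusted p = 1.07e-10), with no overlap. On day 4 it read 11.58, 11.57 and 11.61 under vehicle and 10.94, 10.98 and 10.90 under the inhibitor, a difference of -0.65 (SE 0.096, adjusted p = 1.42e-05). On day 2 the treated arrays at 11.75, 11.96 and 11.80 overlapped the vehicle arrays at 12.02, 11.92 and 12.20 (adjusted p = 0.177). CCNA2, cyclin A2, which acts in S phase and G2, was among the few genes called on day 2. It read 11.38, 11.39 and 11.46 under the inhibitor on day 2 and 11.70, 11.62 and 11.65 under vehicle (-0.25, SE 0.070, adjusted p = 0.0253), and reached -1.03 on day 6. In a limma fit of all probe sets its other probe set was not called on day 2 (-0.18, adjusted p = 0.689). CDK1, the kinase itself, read 12.91, 12.85 and 12.85 under vehicle on day 6 and 12.06, 11.996 and 12.16 under the inhibitor (-0.80, SE 0.13, adjusted p = 2.04e-05). CDC25C, a phosphatase that activates CDK1, differed by 0.04 on day 2 and fell by 0.69 on day 4 and 1.17 on day 6. FOXM1, the transcription factor that drives many of these genes, read 9.003, 8.95 and 9.64 on day 6 treated arrays, with replicate 3 the highest, against 9.93, 9.99 and 10.14 (-0.82, SE 0.12, adjusted p = 6.29e-06). CDC25B, a phosphatase of the same family, had the smallest fall of the group, -0.66, from 9.47, 9.58 and 9.65 to 8.90, 8.93 and 8.90.

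Both mitotic kinases listed apart, PLK1 and AURKA, were lower on days 4 and 6. PLK1, the polo-like kinase that acts from mitotic entry to cytokinesis, read 9.11, 9.02 and 9.28 under vehicle on day 6 and 7.63, 7.35 and 7.58 under the inhibitor. Its groups were far apart, a 3.07-fold fall (-1.62, SE 0.092, adjusted p = 1.84e-11). On day 4 it read 8.78, 8.79 and 8.72 against 7.92, 7.999 and 8.14 (-0.74, adjusted p = 1.63e-06), and on day 2 the 3 treated arrays at 9.04, 9.004 and 9.13 lay below the vehicle arrays at 9.43, 9.21 and 9.22 without passing the test (-0.23, adjusted p = 0.124). AURKA, the Aurora kinase of spindle poles, fell less, from 11.91, 12.10 and 11.89 to 11.08, 11.15 and 11.43 on day 6 (-0.75, SE 0.075, adjusted p = 6.37e-08).

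The chromosomal passenger complex, which joins the kinase AURKB to the scaffold INCENP with BIRC5 (survivin) and CDCA8 (borealin) and corrects faulty attachments of chromosomes, was lower in 4 of 4 genes on day 6 and 3 of 4 on day 4. CDCA8 read 10.36, 10.39 and 10.37 under vehicle on day 6 and 9.18, 9.07 and 8.84 under the inhibitor (-1.35, SE 0.073, adjusted p = 1.07e-11). AURKB changed by -1.0007 and BIRC5 by -0.77, the latter from 11.55, 11.62 and 11.70 to 10.86, 10.82 and 10.87. INCENP had the largest difference of all 43 genes, -1.91 (SE 0.26, adjusted p = 3.51e-06), but its probe set was dim. It read 4.54, 5.16 and 5.61 under vehicle and 3.22, 3.28 and 3.07 under the inhibitor, where the lowest value of any array is 2.19. It passed the filter through the groups where it is higher, so the size of its change and its rank compare values at the edge of detection. On day 4 the INCENP arrays overlapped (3.75, 4.22 and 3.84 under vehicle, 3.91, 3.40 and 3.97 under the inhibitor, adjusted p = 0.621).

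Of the spindle checkpoint, which holds back anaphase until chromosomes are attached, 4 of 5 genes were lower on days 4 and 6. BUB1, a checkpoint kinase at kinetochores, read 11.62, 11.61 and 11.62 under vehicle on day 6 and 10.51, 10.43 and 10.26 under the inhibitor (-1.22, SE 0.076, adjusted p = 6.73e-11). BUB1B (BubR1), part of the inhibitor of the anaphase-promoting complex, followed at -1.18, MAD2L1 (MAD2) at -0.92 and the kinase TTK (MPS1) at -0.78. BUB3, which binds BUB1 and BUB1B, went the other way. Its treated arrays read 13.97, 13.996 and 14.22 on day 6 and its vehicle arrays 13.91, 13.78 and 13.79, a difference of 0.24 (SE 0.072, adjusted p = 0.00791) that was lost without treated replicate 3. Other probe sets of BUB3 gave another direction, as described with the probe sets.

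All 6 kinetochore genes were lower on day 6 and 4 of 6 on day 4. SPC25, a subunit of the NDC80 complex that holds microtubules, read 9.29, 9.502 and 9.11 under vehicle on day 6 and 7.996, 7.99 and 7.73 under the inhibitor (-1.39, SE 0.14, adjusted p = 3.79e-08). Its partners NUF2 and NDC80 changed by -1.17 and -1.04, and CENPE, a kinesin motor at kinetochores, by -1.10. CENPA, the histone H3 variant that marks centromeres, was at the same level in both groups on day 4, with 8.73, 8.65 and 8.66 under vehicle and 8.65, 8.69 and 8.70 under the inhibitor. On day 6 it read 9.14, 9.13 and 9.06 under vehicle and 8.16, 8.13 and 7.21 under the inhibitor (-1.28, SE 0.16, adjusted p = 1.2e-06), with replicate 3 the lowest, and the difference was -0.83 with the 3' to 5' covariate. CENPF, a large protein of the outer kinetochore, differed by -0.08 on day 4 (adjusted p = 0.534) and by -0.82 on day 6, from 11.60, 11.62 and 11.69 to 11.05, 10.82 and 10.58.

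The 6 mitotic kinesins, motors that move along or shorten microtubules, were all lower on day 6 (median -1.11), and 5 of 6 were on day 4. KIF18A, which limits the swaying of chromosomes at the spindle equator, read 8.63, 8.55 and 8.45 under vehicle on day 6 and 7.15, 6.87 and 6.48 under the inhibitor, a 3.27-fold fall (-1.71, SE 0.16, adjusted p = 2.05e-08). KIF23, part of centralspindlin, changed by -1.21, KIF2C (MCAK), which depolymerises microtubules, by -1.18, KIF20A, needed for cytokinesis, by -1.03 and KIF11 (Eg5), which pushes spindle poles apart, by -0.84. KIF4A, a chromosome-bound motor, had the smallest fall, from 9.63, 9.66 and 9.63 to 9.03, 8.75 and 9.06 (-0.69, SE 0.081, adjusted p = 4.44e-07).

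Spindle assembly factors were lower in 6 of 6 genes on both day 4 (median -0.30) and day 6 (median -0.98). TPX2, which activates AURKA on spindle microtubules, read 11.34, 11.47 and 11.47 under vehicle on day 6 and 10.40, 10.21 and 9.82 under the inhibitor (-1.29, SE 0.12, adjusted p = 3.03e-08). PRC1, which bundles the microtubules of the central spindle, changed by -1.13, DLGAP5 (HURP) by -0.88 and ASPM, a spindle pole protein, by -0.85. HMMR, the hyaluronan-mediated motility receptor that also binds the spindle, was the other gene called on day 2, with 12.29, 12.40 and 12.29 under the inhibitor and 12.54, 12.48 and 12.58 under vehicle (-0.21, SE 0.066, adjusted p = 0.0473). In a limma fit of all probe sets neither of its probe sets was called on day 2 (adjusted p = 0.074 and 0.694). NUSAP1, which binds microtubules near chromosomes, had the smallest fall on day 6 among the 42, from 12.78, 12.82 and 12.84 to 12.34, 12.34 and 12.16 (-0.53, SE 0.053, adjusted p = 5.03e-08).

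Among the genes of anaphase, UBE2C, the ubiquitin-conjugating enzyme of the anaphase-promoting complex, read 13.07, 13.10 and 13.08 under vehicle on day 6 and 12.29, 12.14 and 11.92 under the inhibitor (-0.97, SE 0.073, adjusted p = 1.05e-09). The activator CDC20 changed by -0.86, and PTTG1 (securin), the inhibitor of separase, by -0.73, from 12.06, 12.18 and 12.19 to 11.41, 11.34 and 11.50. All 3 were thus lower on day 6, and 2 of 3 on day 4. Of the cytokinesis genes, ANLN (anillin), a scaffold of the contractile ring, read 11.23, 11.24 and 11.34 against 10.34, 10.31 and 10.26 on day 6 (-0.97, SE 0.13, adjusted p = 2.55e-06). ECT2, which activates RhoA at the cell equator, differed by -0.71 on day 4 and by -0.69 on day 6, when it read 9.71, 9.74 and 9.78 under vehicle and 9.03, 9.03 and 9.11 under the inhibitor.

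MKI67 (Ki-67), the coat protein of mitotic chromosomes used as a marker of proliferation, read 11.26, 11.43 and 11.36 under vehicle on day 6 and 9.99, 9.91 and 9.71 under the inhibitor, a 2.79-fold fall (-1.48, SE 0.071, adjusted p = 1.72e-12). It also had the largest difference on day 4, -0.76, from 11.43, 11.26 and 11.34 to 10.51, 10.64 and 10.60 (adjusted p = 4.75e-08). On day 2 its treated arrays at 11.20, 11.27 and 11.27 lay below the vehicle arrays at 11.44, 11.41 and 11.53 without passing the test (-0.21, adjusted p = 0.0552). TOP2A, the topoisomerase that untangles sister chromatids, fell by 0.54 on day 6, from 12.36, 12.42 and 12.46 to 11.89, 11.82 and 11.92, and its arrays overlapped on day 4 (-0.10, adjusted p = 0.359).

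**Figure D2:**
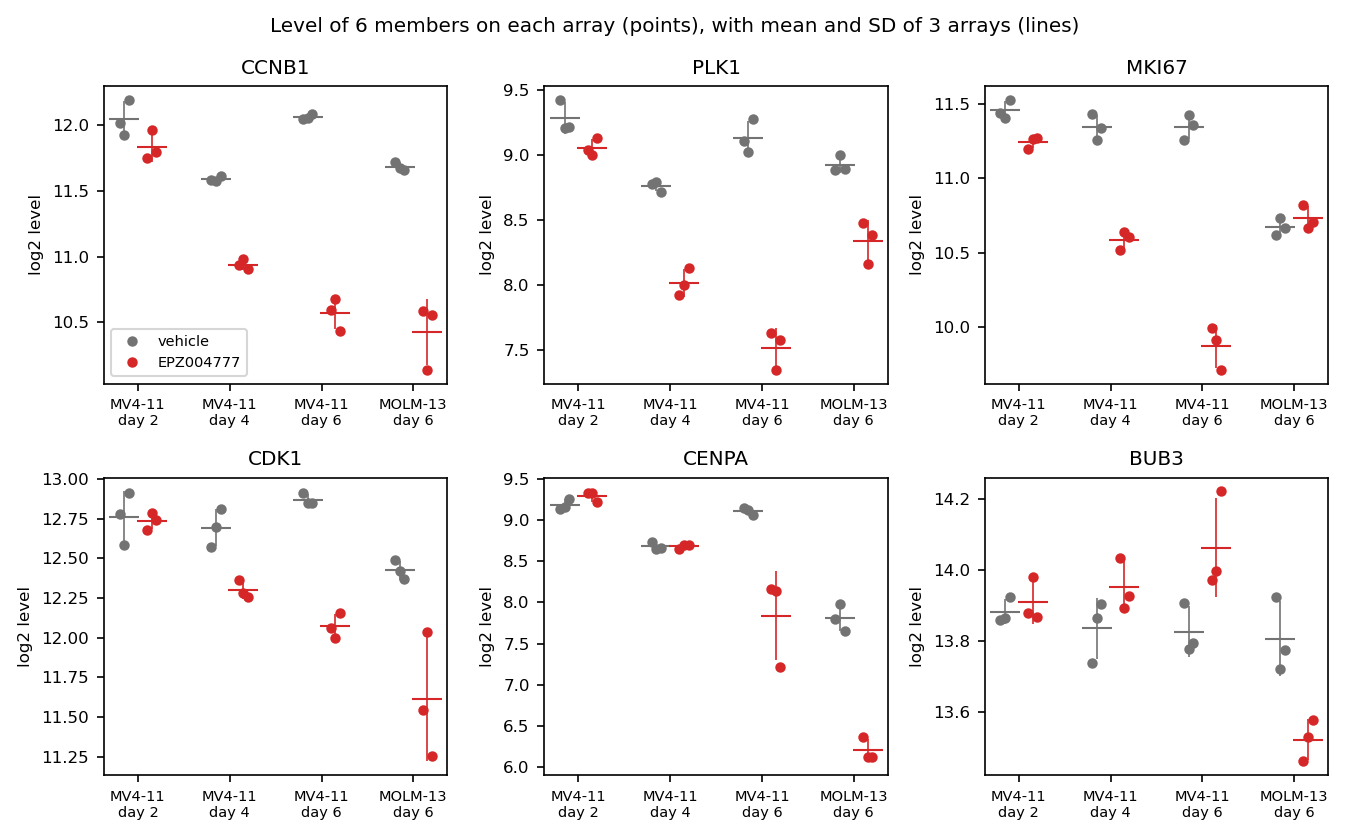
Points are single arrays and lines the mean and SD of 3 arrays; the vertical axis is the log2 level of the gene's probe set, with its own range in each panel. CCNB1 and PLK1 are lower under EPZ004777 on days 4 and 6 and in MOLM-13 cells, MKI67 is lower in MV4-11 cells and overlaps in MOLM-13 cells, CENPA is at the same level in both groups on day 4, and BUB3 lies above vehicle in MV4-11 cells and below it in MOLM-13 cells on day 6.

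The timing was tested as the difference between the effects of successive days. From day 2 to day 4 the effect became lower in 17 of 43 genes (median -0.32), where it did in 7.77% of all genes, and from day 4 to day 6 in 35 of 43 (median -0.61), where it did in 11.9%. From day 2 to day 6 it became lower in 42 of 43 (median -0.90), where it did in 18.7%. No gene of the 43 was called in the opposite direction in these differences (0 at an unadjusted p under 0.05 in limma for each). Over all genes, the effect became higher in 792 and lower in 852 from day 2 to day 4. It became higher in 1519 and lower in 1302 from day 4 to day 6. From day 2 to day 6 it became higher in 2291 and lower in 2049. For 41 of the 43 the 3 effects stood in the order of the days. The shares of all genes with this order, or with the combinations of steps below, were not counted. Both steps were called for 13 genes, among them CCNA2, CCNB1, PLK1, BUB1 and MKI67, and the later step alone for 22. The earlier step alone was called for AURKA, TTK, ANLN and ECT2, and neither step for CDK1, FOXM1, MAD2L1 and BUB3. These groups depended on the 3' to 5' difference. As a covariate it brought the later step to a call for AURKA (-0.42), TTK (-0.43), CDK1 (-0.64) and FOXM1 (-0.45). The later step was then not called for CDC25C, KIF23, SPC25 and TOP2A.

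Genes differed in how much of the day 6 change was present before. On day 2 the median share of the day 6 log2 change was 9.18% over the 42 genes that fell, and on day 4 it was 42.02%. ECT2 had reached 103% on day 4, FOXM1 82.7% and ANLN 74.4%, and their day 4 to day 6 differences did not pass the test (0.02, 95% interval -0.28 to 0.32, for ECT2; -0.14, -0.49 to 0.21, for FOXM1; -0.25, -0.63 to 0.14, for ANLN). At the other end, CENPA had reached 0.0157%, INCENP 9.4% and CENPF 10.0%. These low shares rest on the vehicle arrays of day 4: with those of days 2 and 6 in their place they were 36.5%, 58.0% and 33.5%, and CENPA was then called lower on day 4 (-0.47, adjusted p = 0.00759). Apart from the dim INCENP (-1.73), the largest day 4 to day 6 differences were those of CENPA (-1.27, SE 0.23, adjusted p = 0.000613), KIF18A (-1.21), TPX2 (-0.95) and CDCA8 (-0.91), all with their lowest value in day 6 treated replicate 3. With the 3' to 5' covariate these 4 stood at -0.73, -0.89, -0.54 and -0.73. Again 35 of the 43 genes were called lower (median -0.55), but not all the same ones. FOXM1 was then called in limma (-0.45, adjusted p = 0.0483), while ECT2 and ANLN were not. The largest day 2 to day 4 differences were those of CDC25C (-0.73, SE 0.14, adjusted p = 0.00122), ANLN (-0.57), ECT2 (-0.56), MKI67 (-0.54) and NDC80 (-0.53).

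**Figure D3:**
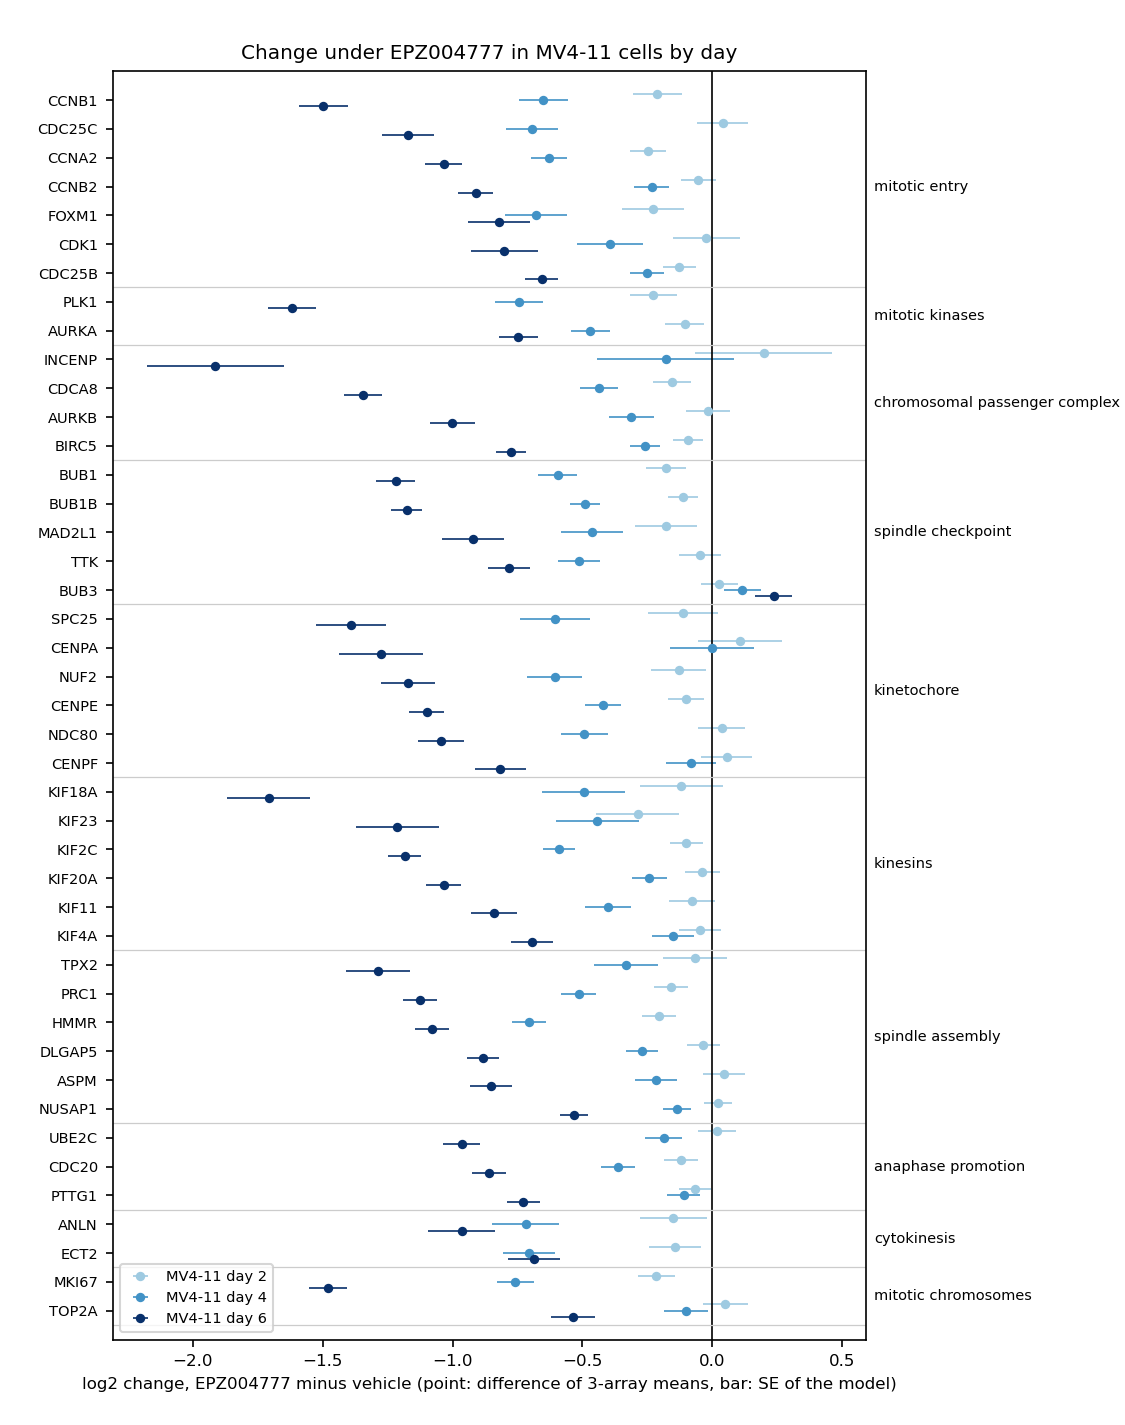
Points are log2 differences between the means of 3 EPZ004777 and 3 vehicle arrays in MV4-11 cells, one colour per day, and bars the SE of the model. Day 6 points lie furthest to the left for all genes but ECT2, whose day 4 and day 6 points coincide within their SE, and BUB3, which lies right of 0.

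The size of the day 4 effect rests in part on the vehicle arrays of that day. Without any inhibitor, 27 of the 43 genes were lower on day 4 than on day 2 in vehicle cells (median -0.28), where 14.1% of all genes were. PLK1 differed by -0.52 (SE 0.092, adjusted p = 0.000333), SPC25 by -0.52, CENPA by -0.50, CDC20 by -0.48 and KIF4A by -0.47. From day 4 to day 6, 17 of the 43 were higher again (median 0.22), where 9.93% of all genes were; without vehicle replicate 3 of day 4, or of day 6, 10 were. SPC25 differed by 0.65 (SE 0.14, adjusted p = 0.00279), CCNB1 by 0.48, DLGAP5 by 0.42 and TOP2A by 0.40, and the dim INCENP by 1.17. Between days 2 and 6 only CDC25B and CDC20 were called lower under vehicle (both -0.30), where 0.337% of all genes were, and with any array but day 6 replicate 3 left out at most 1 of them was. The mean over arrays of the median level of the 43 genes was 11.33 on day 2, 11.09 on day 4 and 11.28 on day 6 under vehicle, and 11.19, 10.55 and 10.20 under the inhibitor. With the vehicle arrays of days 2 and 6 in place of those of day 4, 42 genes were lower on day 4 with a median of -0.70, and the median share of the day 6 change reached on day 4 was 68.0%. The effect then became lower from day 2 to day 4 in 42 genes (median -0.59) and from day 4 to day 6 in 25 (median -0.35). Over all genes, calls of the day 2 to day 4 difference in either direction also rose, from 1644 to 3538. All-gene counts with these vehicle arrays are not given here for the day 4 effect or the later step. Which vehicle arrays stand for day 4 therefore sets how the fall divides between both intervals, and the cause of the lower day 4 vehicle level was not tested.

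In MOLM-13 cells the same genes moved less on day 6 and not all one way. The median difference was -0.24, where the median of all genes was -0.03, and 25 of 43 were lower, where 36.5% of all genes were. Among the 43, 3 were higher, where 29.3% of all genes were, and 15 were not called. The treated arrays lay below all vehicle arrays for 24 genes, where 37.4% of all genes were so placed, above them for 4, and overlapped for 15. The shares of all genes placed above or overlapping were not counted. Falls of at least 2-fold were called in 4 of the 43 genes, CENPA, CCNB1, KIF18A and SPC25. That lies near the share over all genes, 7.22%. Single treated arrays had medians of -0.18, -0.21 and -0.23 over the 43 genes. The count is thus less far from its background than in MV4-11 cells, and it depended on scaling. After a second quantile normalization 16 were lower and 7 higher, where 3607 and 3522 of the 10963 genes tested were. That lower count lies near the share over all genes. With arrays set to a common median 19 were lower and 5 higher, where 3447 and 3850 of all genes were. With the 3' to 5' difference as a covariate 13 were lower and 5 higher, where 4338 of all genes were called in either direction. That difference was 2.10 to 2.84 in treated and 0.95 to 1.15 in vehicle arrays with no overlap. RNA quality and treatment therefore cannot be told apart from these arrays alone. The same limit holds for MV4-11 cells on day 6, at 0.83 to 1.91 in treated and 0.57 to 0.58 in vehicle arrays. It thus also holds for the difference between the lines.

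The genes that fell most in MOLM-13 cells came from several roles. CENPA read 7.80, 7.98 and 7.65 under vehicle and 6.37, 6.13 and 6.13 under the inhibitor, a 3.04-fold fall (-1.61, SE 0.16, adjusted p = 5.15e-08). CCNB1 read 11.72, 11.67 and 11.66 against 10.59, 10.14 and 10.56 (-1.26, SE 0.096, adjusted p = 1.2e-09), and SPC25 9.15, 9.07 and 8.89 against 8.01, 7.84 and 7.99 (-1.09, SE 0.14, adjusted p = 8.51e-07). KIF18A read 8.66, 8.47 and 8.23 against 7.64, 7.26 and 7.14 (-1.11, SE 0.16, adjusted p = 5.28e-06). None of these 4 genes had overlapping groups. TPX2 changed by -0.92, BUB1 by -0.90, CDK1 by -0.81, MAD2L1 by -0.63, TOP2A by -0.60 and PLK1 by -0.58, the last from 8.89, 9.0004 and 8.90 to 8.48, 8.16 and 8.39. With the 3' to 5' difference as a covariate CENPA stood at -0.65 (adjusted p = 0.00222), CCNB1 at -0.85 (adjusted p = 0.000118), CDK1 at -1.23 and BUB1 at -0.71, while KIF18A at -0.54 (adjusted p = 0.108) and TPX2 at -0.20 (adjusted p = 0.189) were no longer called.

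The 3 genes called higher in MOLM-13 cells all fell in MV4-11 cells. CDC25B read 10.68, 10.80 and 10.85 under vehicle and 11.25, 11.25 and 11.22 under the inhibitor (0.46, SE 0.064, adjusted p = 3.12e-06). NUSAP1 read 12.69, 12.79 and 12.72 against 12.98, 12.92 and 13.00 (0.23, SE 0.053, adjusted p = 0.000794), and TTK 11.30, 11.22 and 11.18 against 11.43, 11.40 and 11.44 (0.19, SE 0.081, adjusted p = 0.0476). CDC25B and NUSAP1 were also higher with the covariate (0.47 and 0.43) and under both scalings, whereas TTK stood at -0.10 with the covariate and was not called. Among the 15 genes not called, MKI67 read 10.62, 10.73 and 10.66 under vehicle and 10.82, 10.67 and 10.71 under the inhibitor (0.06, adjusted p = 0.478), but was called higher with the covariate (0.37, adjusted p = 0.00722) and after quantile normalization (0.16, adjusted p = 0.0435). BUB1B read 12.22, 12.29 and 12.28 against 12.24, 12.17 and 12.28 (-0.03, adjusted p = 0.647). AURKA (-0.01), BIRC5 (-0.08), CDC20 (-0.04), UBE2C (-0.02) and PTTG1 (-0.11) overlapped as well, and no anaphase gene passed the test (smallest adjusted p = 0.137). FOXM1 lay above vehicle on all 3 treated arrays, 10.69, 10.62 and 10.58 against 10.27, 10.39 and 10.42, without passing the test (0.27, adjusted p = 0.0541), and the sign turned to -0.28 with the covariate.

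Tested directly on day 6, the effect in MOLM-13 cells was less negative or higher than that in MV4-11 cells for 34 of 43 genes, where it was for 19.3% of all genes, and more negative for BUB3 (-0.52, SE 0.10, adjusted p = 0.0003), where it was for 32.7%. The median difference between the lines was 0.78 over the 43 genes and -0.10 over all genes. Setting arrays to a common median moved the median of all genes to 0.06 and the split of their calls from 3583 lower and 2120 higher to 2589 lower and 3204 higher. The 43 genes then gave 39 higher and 1 lower with a median of 0.93, and 36 higher and 1 lower with the 3' to 5' covariate. INCENP differed by 2.35, but it read 3.07 to 3.28 in treated MV4-11 cells and 3.28 to 3.40 in MOLM-13 vehicle cells, so that this size compares values at the edge of detection. Apart from it, the largest differences were those of MKI67 (1.54, SE 0.10, adjusted p = 3.81e-10), ANLN (1.21), BUB1B (1.14) and CDC25B (1.12, SE 0.090, adjusted p = 7.53e-09). By role, all 6 kinesins, all 4 chromosomal passenger genes, both kinases and all 3 anaphase genes differed in this direction, as did 5 of 7 entry genes, 5 of 6 spindle assembly genes, 4 of 6 kinetochore genes and 3 of 5 checkpoint genes. These calls hold for the probe set used. The other probe sets of CCNA2 (-0.05), CDC25C (-0.03) and HMMR (0.40) were not called, while those of MKI67 were (1.36, 1.25 and 1.15). Those of BIRC5 gave 0.49, not called, and 1.32 and 0.55, both called.

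For 8 genes the difference between lines did not pass the test with the probe set and scaling used. It was, with its 95% interval, 0.24 (-0.047 to 0.52) for CCNB1, -0.01 (-0.39 to 0.37) for CDK1, -0.33 (-0.81 to 0.15) for CENPA and -0.07 (-0.32 to 0.19) for TOP2A. SPC25 stood at 0.30 (-0.10 to 0.70), MAD2L1 at 0.29 (-0.06 to 0.64), TPX2 at 0.37 (adjusted p = 0.0862) and ECT2 at 0.29 (adjusted p = 0.0878). These intervals do not cover other settings: with a common median CCNB1 (0.39), MAD2L1 (0.45), SPC25 (0.46), TPX2 (0.52) and ECT2 (0.45) were called, and with the 3' to 5' covariate CCNB1 (0.45) and TPX2 (0.75) were. Nor do they cover other probe sets, which gave 0.99 (adjusted p = 6.82e-06) for CCNB1, 1.503 and 1.33 for TOP2A and -2.27 and 0.43 for MAD2L1. Of the 42 genes that fell in MV4-11 cells, 24 were called lower in both lines and 18 were not called lower in MOLM-13 cells. The share of all genes called lower in both lines was not counted. By value, the fall was larger in MOLM-13 cells for CDK1, CENPA and TOP2A. This order turned for CENPA with the covariate, when the difference between lines was 0.18, for CDK1 (0.15) and TOP2A (0.09) with a common median, and for TOP2A with its other probe sets. With the probe set used, BUB3 read 13.92, 13.72 and 13.77 under vehicle in MOLM-13 cells and 13.46, 13.53 and 13.58 under the inhibitor (-0.28, SE 0.072, adjusted p = 0.0019), and after quantile normalization the difference was -0.11 and not called (adjusted p = 0.182). Its other probe sets gave -1.38, -0.53 and -2.25 in MOLM-13 cells, each called lower, and -0.20, not called.

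Single genes also differed between the lines before treatment. Under vehicle on day 6, 16 of the 43 genes were lower in MOLM-13 than in MV4-11 cells, where 33.0% of all genes were, and 7 were higher, where 30.7% were. The lower count lies near the share over all genes, and the higher count lies below it. INCENP read 3.28, 3.40 and 3.28 in MOLM-13 vehicle cells, close to the lowest value, which leaves little range for a fall there, and CENPA was lower by 1.30 (SE 0.16, adjusted p = 7.26e-07). CDC25B was higher by 1.21 (SE 0.064, adjusted p = 1.87e-12) and TTK by 0.77, both also among the 3 genes that were higher under the inhibitor in that line, and MKI67 differed by -0.68.

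**Figure D4:**
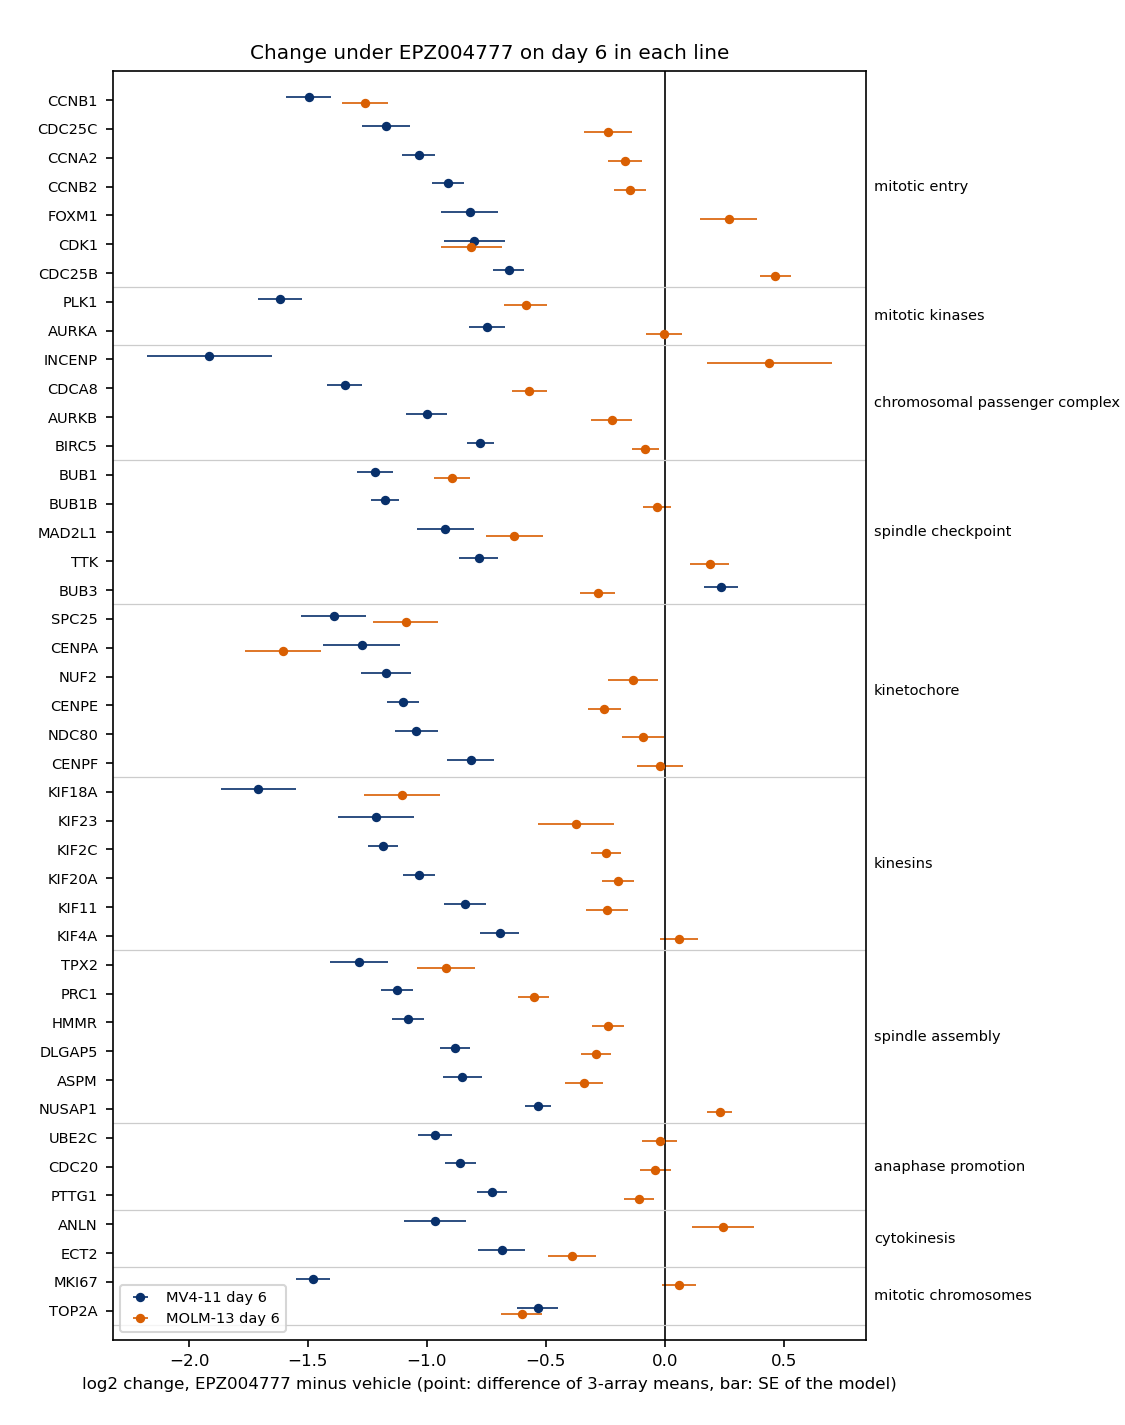
Points are log2 differences between 3 EPZ004777 and 3 vehicle arrays on day 6, blue for MV4-11 and orange for MOLM-13 cells, and bars the SE of the model. MV4-11 points lie left of -0.5 for all genes but BUB3, while MOLM-13 points spread from -1.61 (CENPA) to 0.46 (CDC25B), and both lines lie close together for CCNB1, CDK1 and TOP2A.

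On day 6, other probe sets of the same genes gave the same direction in MV4-11 cells for all genes but BUB3, and often another in MOLM-13 cells. Of 85 probe sets for the 43 genes, 78 passed the filter, and 20 genes had more than 1. In MV4-11 cells all probe sets of a gene had the same sign in 12 of these 20 genes on day 2 and in 18 on day 4. On day 6 in MV4-11 cells 73 of the 78 were lower and 2 higher, and all probe sets of a gene had the same sign in 19 of 20 genes. BUB3 was the exception: its probe sets gave 0.24, 0.22, 0.04, -0.17 and -0.69, so its direction is not settled by this array. In MOLM-13 cells 40 of the 78 were lower and 11 higher, all had the same sign in 12 of 20 genes, and ASPM, AURKB, KIF23 and TOP2A had probe sets called in both directions. The range between probe sets of a gene on day 6 had a median of 0.79 in MV4-11 and 1.18 in MOLM-13 cells. In MOLM-13 cells CCNB1 stood at -1.26 with the probe set used and at -0.01 with the other, CCNA2 at -0.17 and -2.12, CDC25C at -0.24 and -2.25, and TOP2A at -0.60, 0.30 and 0.71. MAD2L1 stood at -0.63, -1.19 and -4.48, and CDK1 at -0.81, -2.12, -2.33 and -2.32. All 4 probe sets of MKI67 lay above 0, at 0.06, 0.16, 0.71 and 0.42, and 3 of them were called. The position of each probe set along its transcript was not analysed here, and its part in these differences, beside the 3' to 5' difference of the MOLM-13 treated arrays, was not tested.

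**Figure D5:**
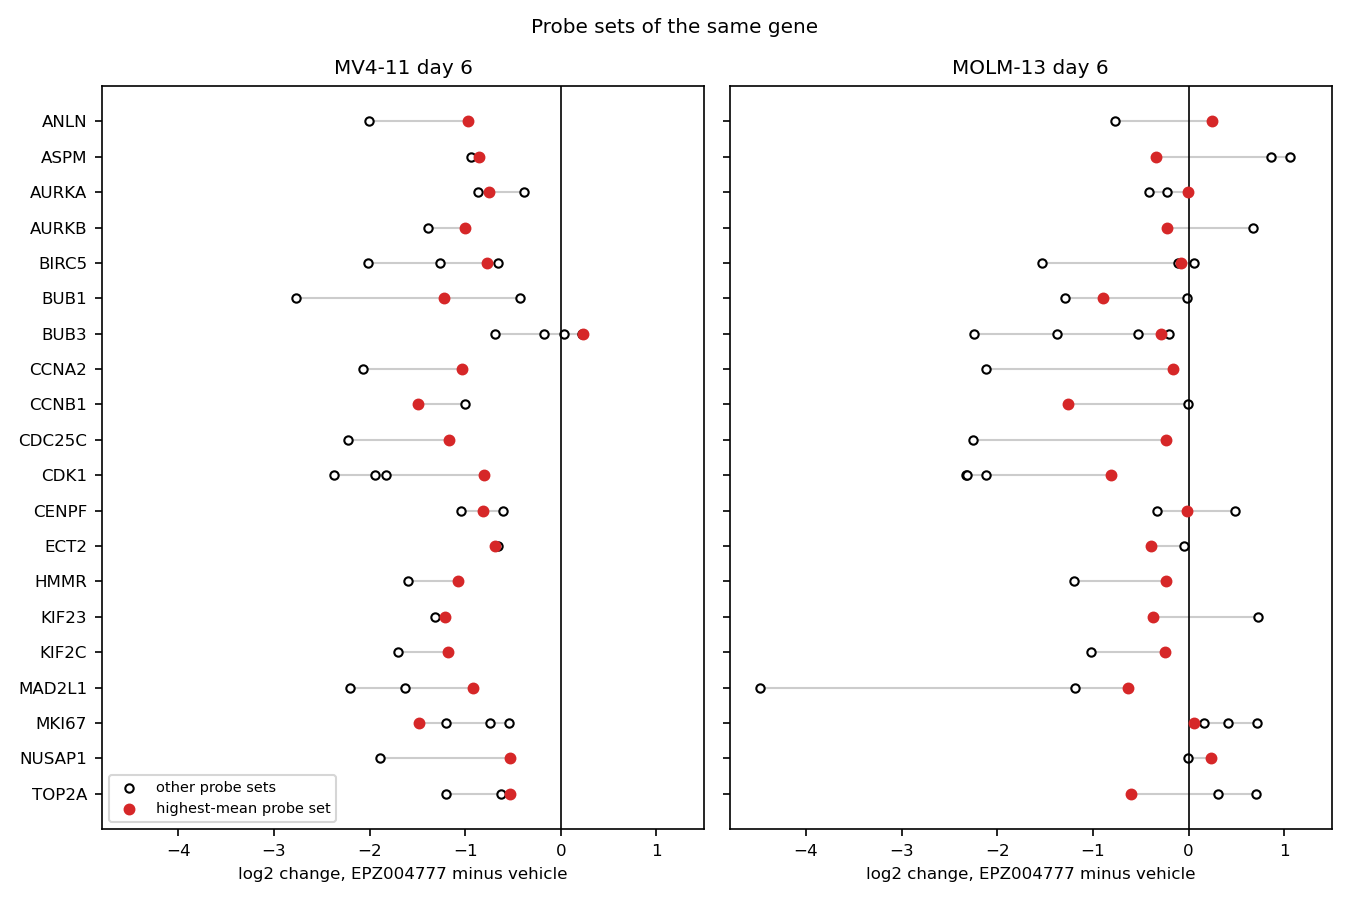
Each row is 1 of the 20 genes with more than 1 probe set above the filter; filled points are the probe set with the highest mean, open points the others, and the horizontal axis is the log2 difference on day 6 in each line. In MV4-11 cells all points but those of BUB3 lie left of 0, while in MOLM-13 cells points of 8 genes lie on both sides of 0.

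Genes of the same pathway that are not among the 43 were counted in the same fits, where 28.4% of all genes were lower and 33.6% higher on day 6 in MV4-11 cells. On day 6 in MV4-11 cells all 8 condensin genes, which compact mitotic chromosomes, were lower (median -0.98), among them SMC2 (-1.48), NCAPH (-1.38) and SMC4 (-0.79). All 10 further regulators of mitotic entry were lower (median -0.80), among them BORA, which activates PLK1 (-1.29), MASTL, the Greatwall kinase (-1.27), and CKS1B (-1.13). Of 28 other centromere and kinetochore genes, 25 were lower and 1 higher (median -0.64), with CENPW at -1.38, CENPN at -1.31 and SKA2 at -1.04. Of 18 other spindle and cytokinesis genes, 15 were lower (median -0.82), with KIF14 at -1.31, DEPDC1 at -1.27 and KIFC1 at -1.12. Cohesin and separase genes were mixed, with 9 of 14 lower and 4 higher (median -0.40), the separase gene ESPL1 at -1.13 and the cohesin loader NIPBL at -0.83. For subunits and regulators of the anaphase-promoting complex, 5 of 15 were lower and 5 higher (median -0.08), near the shares over all genes. Of 18 genes of MuvB, DREAM and E2F regulators, 8 were lower and 2 higher (median -0.21), with E2F7 at -1.19, MYBL2, which encodes B-MYB, at -0.96 and E2F8 at -0.74. Among 11 housekeeping genes 5 were lower (median -0.10), PGK1 the most at -0.63, with GAPDH at -0.25.

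In MOLM-13 cells, where 36.5% of all genes were lower and 29.3% higher, 7 of 8 condensin genes were lower (median -0.61), with SMC2 at -1.46 and SMC4 at -0.81. Their differences between the lines were 0.02 (SE 0.18, adjusted p = 0.937) and -0.02 (SE 0.066, adjusted p = 0.785). The other spindle and cytokinesis genes had 8 of 18 lower and 5 higher (median -0.22), and 15 of the 18 differed from MV4-11 cells towards a smaller fall or a rise. Other centromere and kinetochore genes had 16 of 28 lower and 2 higher (median -0.34), and the further entry regulators 4 of 10 lower and 2 higher (median -0.15). The shares of the spindle and the entry lists lie near those over all genes. CKS1B fell more in MOLM-13 cells (-1.63), whereas ESPL1, at -1.13 in MV4-11 cells, was higher in MOLM-13 cells (0.21, adjusted p = 0.00394). Housekeeping genes gave 5 of 11 lower and 3 higher (median -0.14).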

How the data were processed

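RNA was measured on Affymetrix arrays of 54675 probe sets. The authors deposited 1 intensity per probe set and array, made with GCRMA per the submitters' processing notes; no source used here gives its version. GCRMA adjusts background by probe sequence, quantile normalizes and summarises probes, so dim probe sets depend on that adjustment. The values, 4.551 to 71593, were on a linear scale, and log2 was taken with a pseudocount of 0. Of the probe sets, 41097 had 1 gene symbol, 1801 several and 11777 none, and 62 were controls; only those with 1 symbol were used. All 24 arrays were fitted with limma 3.58.1 in R 4.3.3 (8 group means, contrasts, eBayes, two-sided, Benjamini-Hochberg over 10963 genes; 19 degrees of freedom), on which the 95% intervals rest. An exact test of 3 against 3 cannot go below 0.1. The number of arrays limits precision.

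The 43 genes, their roles, the other lists and the tests were chosen with earlier results of these data known. Genes with values in every array are the largest and smallest day 6 changes of each role, up to 8 called genes of each treatment comparison, those called higher or not called in MOLM-13 cells, and up to 5 of each difference; the text gives examples. Lists name up to 3 genes by adjusted p. Genes named beyond this only complete a role or a count. Steps were tested on simulated data with known changes. Alternatives were other filters, pseudocounts, variance priors, scalings, probe sets and vehicle arrays, the 3' to 5' covariate, the replicate number as a block, and each array left out. Python 3.11.15 with pandas 2.3.3, numpy 2.4.6, scipy 1.17.1 and matplotlib 3.10.9 did the rest.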

Additional observations from a re-analysis of the deposited data

Results flagged for a closer look

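The results below are those in which the effect of the inhibitor differed between days or between lines by a test of the difference itself in limma. In MV4-11 cells the effect became lower from day 2 to day 4 in 17 of the 43 genes, most in CDC25C (-0.73), ANLN (-0.57), ECT2 (-0.56), MKI67 (-0.54) and NDC80 (-0.53). It became lower from day 4 to day 6 in 35, most in INCENP (-1.73), CENPA (-1.27), KIF18A (-1.21), TPX2 (-0.95) and CDCA8 (-0.91). Each of these 5 was lowest in the day 6 treated replicate with the high 3' to 5' difference, and INCENP is near the lowest value of the arrays there. Over the whole interval from day 2 to day 6 the effect became lower in 42, most in INCENP (-2.11), KIF18A (-1.59), PLK1 (-1.39), CENPA (-1.38) and CCNB1 (-1.29).

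Between the lines on day 6 the effect was less negative or higher in MOLM-13 cells for 34 genes, most for INCENP (2.35), MKI67 (1.54), ANLN (1.21), BUB1B (1.14) and CDC25B (1.12), and more negative for 1, BUB3. The size and rank of INCENP compare values at the edge of detection in treated MV4-11 and vehicle MOLM-13 cells, and it passed the filter through the groups where it is higher. Groups of 3 arrays were not tested for single arrays that stand apart.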

How the results depend on the processing

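The count of 42 genes lower in MV4-11 cells on day 6 was 41 or 42 under all alternatives run, and the medians of all comparisons kept their sign. The 2 genes called on day 2 became 1 with no filter, 5 with only the arrays of the comparison, 0 after a second quantile normalization, 6 with the 3' to 5' covariate and 0 to 1 when any single array was left out. The replicate number as a block, which did not pair the arrays (correlations of same-numbered arrays from -0.262 to 0.096), gave 1 on day 2, 35 on day 4, 42 lower and 1 higher on day 6, and 23 lower and 2 higher in MOLM-13 cells. Averaging all probe sets of each gene gave 1 higher gene on day 4, a day 6 median of -1.13 and a day 2 to day 6 median of -0.998. The 1 higher gene of day 6, BUB3, became 0 with only the arrays of the comparison, the mean of probe sets (-0.14), a common median, the covariate, and without treated replicate 3 (range 0 to 1). With the vehicle arrays of days 2 and 6 for day 4, the day 4 median was -0.70, and the effect became lower in 42 genes from day 2 to day 4 (median -0.59), with a median of -0.35 from day 4 to day 6. In MOLM-13 cells quantile normalization gave 16 lower and 7 higher (median -0.11), where 3607 and 3522 of all 10963 genes were. A common median gave 5 higher (median -0.16), where 3850 of all genes were, and the covariate 13 lower and 5 higher. For the difference between lines the median was 0.91 after quantile normalization and 0.93 with a common median, and the lower count ran from 1 to 2 with an array left out. Quantile normalization gave 1 gene in which the effect became higher from day 2 to day 6, and that median ran from -0.99 to -0.86 with an array left out. Vehicle genes higher from day 4 to day 6 numbered 10 to 16 with an array left out, and those lower from day 2 to day 6 numbered 0 with only the arrays of the comparison, 1 after quantile normalization and 0 to 2 with an array left out.

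Signs turned in ECT2 on day 4 with another probe set (5.3e-05), in BUB3 on day 6 with others (-0.69 and -0.17), and in MOLM-13 cells in BUB1B after quantile normalization (0.14), with the covariate in TTK (-0.10), CENPF (0.45) and UBE2C (0.31), and with another probe set in CENPF (0.48), NUSAP1 (-0.0019), ANLN (-0.77), ASPM (0.86 and 1.06), AURKB (0.68), KIF23 (0.73), TOP2A (0.30 and 0.71) and BIRC5 (0.06). Counting all 43 genes, called or not, the MOLM-13 sign turned in 8 with the covariate, 6 with a common median and 9 after quantile normalization. For the difference between lines it turned in CENPA (0.18) with the covariate and in CDK1 (0.15) and TOP2A (0.09) with a common median. The cause was not tested. Of 1692 gene values under alternatives, 1582 kept their direction and side of the threshold. Over all genes, calls on day 2 fell from 1372 to 912 without vehicle replicate 1, those in MOLM-13 cells from 7214 to 4338 and those of the day 4 to day 6 difference from 2821 to 1492 with the covariate, and those of the day 2 to day 4 difference rose from 1644 to 3538 with the other vehicle arrays. Under vehicle, calls over all genes fell from 2957 to 1871 between days 2 and 4 without day 4 replicate 3, from 2112 to between 1095 and 1310 between days 4 and 6 without day 4 replicate 3 or day 6 replicate 2 or 3, and ranged from 0 to 366, against 123, between days 2 and 6. Scaling also moved the split of all-gene calls by over 10 percentage points for the day 4 to day 6 difference, from 1302 lower and 1519 higher to 1709 and 1259 with a common median, and on day 2, from 404 and 968 to 503 and 755 after quantile normalization. Levels near the lowest value, as for INCENP, limit what the arrays can show.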
